A study of Mus musculus with 8 samples.

Results

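Pericytes and vascular smooth muscle cells, together called mural cells, wrap the endothelial tube of brain vessels. This account follows 10 genes commonly used to recognise them (Pdgfrb, Cspg4, Anpep, Kcnj8, Abcc9, Rgs5, Myl9, Acta2, Vtn and Higd1b), out of the 55487 genes measured in E18.5 mouse cortex, just before birth. They were chosen by name, with earlier results of these data known. All 10 were found in the expression table by Ensembl identifier, each with 1 match. The Upf2cKO group held 4 cortices with the genotype Upf2 fl/fl;Emx1-Cre, in which both copies of Upf2 are floxed and a Cre recombinase is driven from Emx1. Upf2 encodes a protein needed for nonsense-mediated decay of mRNA (NMD). The control group held 4 cortices for which no Cre is listed, of which controls 1, 3 and 4 were Upf2 fl/fl and control 2 was Upf2 fl/+. All 8 animals therefore carried at least 1 floxed Upf2 allele, and no library had Cre without floxed alleles. Whether embryos shared a litter is not stated, and p-values reflect only the spread among these samples, which may be technical.

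Endothelial cells attract pericytes by releasing the growth factor PDGF-B, which binds the receptor PDGFRB on the pericyte surface, and both cell types share a basement membrane. Mural cells regulate vessel diameter and help to form the blood-brain barrier. In the forebrain they derive largely from the cephalic neural crest, whereas Emx1-Cre is active in the neuroepithelial progenitors that produce the excitatory neurons and the glia of the cortex. Transcripts that carry a premature stop codon are removed by NMD. In the GENCODE annotation of mm10, 0 of the 10 genes had a transcript of the NMD class, against 20.8% of 21951 protein-coding genes.

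Levels are given as CPM, a gene's share of the library's assigned reads scaled to a common total. The libraries held an estimated 96.6 to 156.0 M assigned reads, and 1 read was worth an estimated 0.0064 to 0.0104 CPM. If both mates of a fragment were counted, which was not tested, these read numbers exceed the number of fragments. Upf2, measured over the whole gene, stood at 143 ± 7.84 CPM in Upf2cKO and 61.8 ± 4.58 CPM in controls (SD, n = 4 each; 2.31-fold higher, limma adjusted p = 3.35e-08). A whole-gene total does not report on the floxed part, so this value checks neither the deletion nor the labels. Markers of cortical excitatory neurons were present in every library, at summed levels of 2155 to 2539 CPM in Upf2cKO and 2747 to 2997 CPM in controls. Upf2cKO 1 stood apart in 6 markers of mature neurons and glia, with a sum of 819 CPM while Upf2cKO 2 to 4 held 98.5 to 104 CPM, and control 1 was the highest control at 249.9 CPM against 108 to 137 CPM. Upf2cKO 4 and control 4 carried most choroid plexus RNA, with sums of 286 and 132 CPM. Where leaving out Upf2cKO 1 changed a member's call or sign, both values are given.

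Mural RNA was present in every library, with each member except Acta2 at 1.64 CPM or more. The mural genes were lower in Upf2cKO for some members and close to control for others. A gene was tested if it reached 0.5 CPM in at least 4 libraries, and 9 of the 10 did. Of these 9, 4 fell (Myl9, Higd1b, Pdgfrb and Rgs5), 0 rose and 5 did not pass the test (limma, adjusted p under 0.05 over all 16573 genes tested). Over all genes tested, 26.3% were lower and 36.7% higher, 63.0% in all. The median log2 change of the 9 was -0.27, against 0.04 over all genes tested. In 3 members (Pdgfrb, Myl9 and Higd1b) each Upf2cKO library lay below each control, a pattern seen in 22.3% of all genes tested. In bulk tissue, fewer mural cells and less RNA of a gene per mural cell cannot be told apart.

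**Figure D1:**
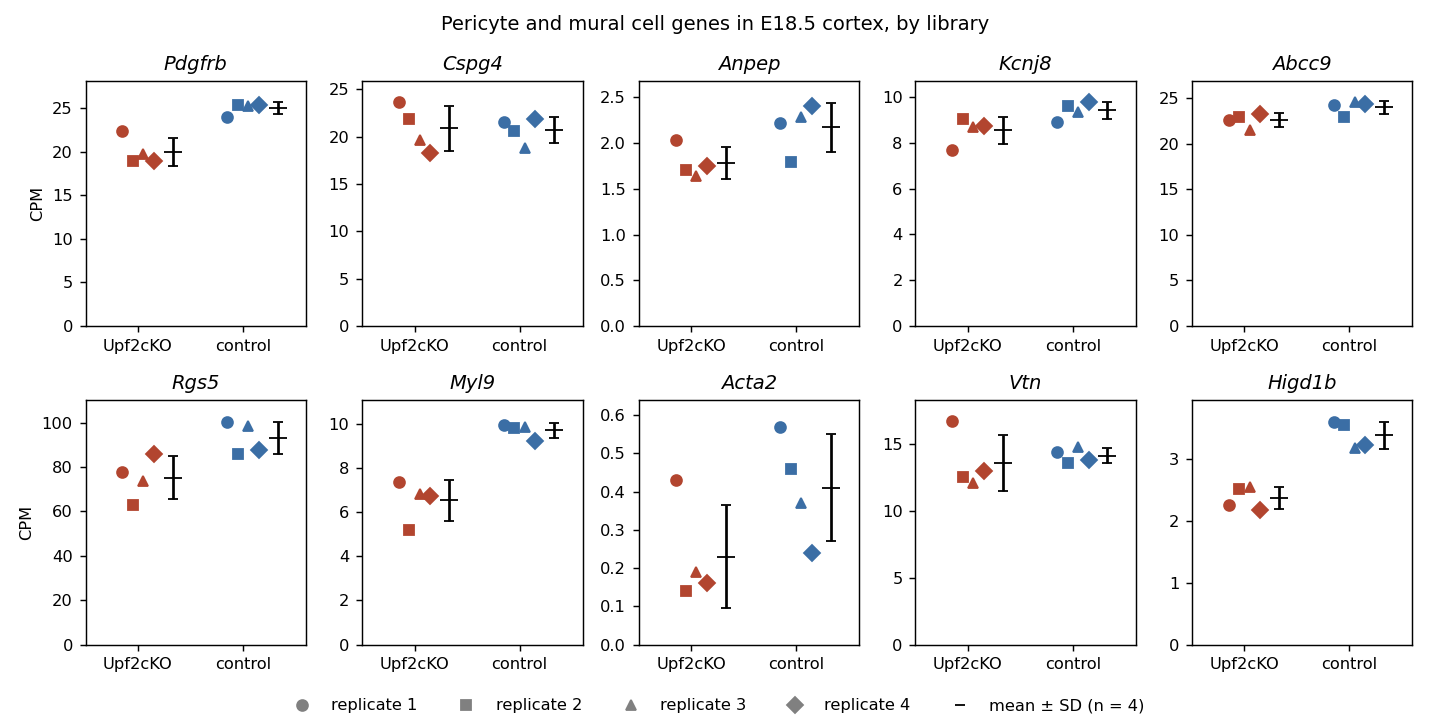
Level of each of the 10 genes in CPM (vertical axes, each starting at 0) in the 4 Upf2cKO libraries (left, red) and the 4 controls (right, blue), with the mean and SD. Pdgfrb, Myl9 and Higd1b separate the groups, Rgs5 nearly so, and Cspg4 and Vtn do not.

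Pdgfrb, the receptor for PDGF-B through which pericytes are recruited, had 22.35, 18.93, 19.72 and 18.89 CPM in Upf2cKO 1 to 4, against 23.97, 25.38, 25.25 and 25.28 CPM in controls 1 to 4. The groups did not overlap, and the libraries nearest to each other were Upf2cKO 1 and control 1. The level was 1.25-fold lower in Upf2cKO (log2 change -0.32, SE 0.061, limma adjusted p = 8.76e-04; folds and log2 changes are on the log2(CPM + 0.1) scale). Without Upf2cKO 1 the log2 change was -0.38. In mm10 coordinates it occupies chromosome 18, positions 61045150 to 61085061, plus strand.

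The 2 other cell surface proteins of the set did not pass the test. Cspg4 encodes the NG2 proteoglycan of pericytes, which oligodendrocyte precursors also make. It had 23.68, 21.81, 19.65 and 18.31 CPM in Upf2cKO, against 21.5, 20.62, 18.77 and 21.89 CPM in controls. The groups overlapped fully, with a log2 change of 0.01 and a 95% interval of -0.18 to 0.19 (limma adjusted p = 0.946), and it was -0.06 without Upf2cKO 1. The 7 oligodendrocyte precursor markers summed to 125 to 152 CPM in Upf2cKO and 138 to 179 CPM in controls, and Upf2cKO 1, with the most Cspg4 of its group, also had the highest sum of its group. This match did not hold in controls, where control 1 had the highest precursor sum (179 CPM) and control 4 the most Cspg4 (21.89 CPM). The part of oligodendrocyte precursors in the Cspg4 level was not tested. Cspg4 per Pdgfrb was 0.969 to 1.15 in Upf2cKO and 0.743 to 0.897 in controls, as a ratio of CPM values, so the 2 genes did not keep the same proportion in both groups.

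Anpep encodes aminopeptidase N (CD13), an enzyme on the pericyte surface that fibroblasts and myeloid cells can also carry. It had 2.03, 1.71, 1.64 and 1.75 CPM in Upf2cKO and 2.22, 1.79, 2.28 and 2.4 CPM in controls. Control 2, the Upf2 fl/+ animal, was the low control and lay within the Upf2cKO range. The log2 change was -0.27 with a 95% interval of -0.53 to -0.0019, and it missed the threshold (limma adjusted p = 0.0736). It passed without control 2 (log2 change -0.35, adjusted p = 0.0251) and without Upf2cKO 1 (-0.33, adjusted p = 0.0361). Of 17 alternative settings it passed in only 4, with log2 changes of -0.35 to -0.19 and limma adjusted p up to 0.253.

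Kcnj8 and Abcc9 encode the 2 subunits of the ATP-sensitive potassium channel of mural cells, the pore Kir6.1 and the sulfonylurea receptor SUR2, and lie beside each other on chromosome 6. Kcnj8 (142564837 to 142571614, minus strand) had 7.69, 9.05, 8.71 and 8.75 CPM in Upf2cKO and 8.93, 9.63, 9.34 and 9.8 CPM in controls. Abcc9 (142587862 to 142702315, minus strand) had 22.6, 22.94, 21.53 and 23.26 CPM in Upf2cKO and 24.23, 22.96, 24.56 and 24.31 CPM in controls. For both genes, 3 of the 4 Upf2cKO libraries lay below every control and the fourth within the control range.

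Neither subunit passed the test. The log2 change of Kcnj8 was -0.14 with a 95% interval of -0.30 to 0.02 (limma adjusted p = 0.105), and that of Abcc9 was -0.09 with an interval of -0.19 to 0.02 (adjusted p = 0.125). Without Upf2cKO 1, its lowest library, Kcnj8 had a log2 change of -0.09. After median-of-ratios rescaling of the libraries, both passed as lower, Kcnj8 with a log2 change of -0.23 (adjusted p = 0.0211) and Abcc9 with -0.18 (adjusted p = 0.00811). For each gene this was the only 1 of 17 alternative settings in which it passed. Over the settings, the log2 change was -0.23 to -0.08 for Kcnj8 and -0.18 to -0.03 for Abcc9. Per gene length, in TPM (scaled by length and to a common total), the level of Kcnj8 was 1.25 ± 0.0929 times that of Abcc9 in Upf2cKO and 1.29 ± 0.0750 times in controls (SD, n = 4 each), so their proportion overlapped between the groups. The strand setting of the counting was not given in the sources used here, and Abcc9 shares 158 exonic bases with the antisense gene 5330439B14Rik, so reads of the pair may be mixed.

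The corresponding subunits of neurons moved in opposite directions. Kcnj11, which encodes the pore Kir6.2, had 24.2 ± 2.72 CPM in Upf2cKO and 34.9 ± 2.23 CPM in controls (SD, n = 4 each; 1.45-fold lower, limma adjusted p = 1.64e-04). Abcc8, which encodes the receptor SUR1, had 42.3 ± 6.34 CPM in Upf2cKO and 31.6 ± 2.38 CPM in controls (SD, n = 4 each; 1.33-fold higher, limma adjusted p = 0.00427). Their ratio by TPM was 1.14 to 1.35 in Upf2cKO and 2.27 to 2.59 in controls, with no overlap.

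Rgs5 encodes a regulator that shortens G protein signalling and is one of the most selective pericyte transcripts in brain. It was the member with the highest level per gene length in both groups, at 68.3 ± 9.14 TPM in Upf2cKO and 81.2 ± 7.26 TPM in controls (SD, n = 4 each). In CPM it had 77.92, 62.7, 73.86 and 85.98 in Upf2cKO and 100.21, 85.9, 98.53 and 87.91 in controls. Upf2cKO 4 lay just above control 2, and the other 3 Upf2cKO libraries lay below every control. Rgs5 fell 1.24-fold (log2 change -0.32, SE 0.090, limma adjusted p = 0.0103), and on TPM it no longer passed (log2 change -0.25, adjusted p = 0.0583).

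Myl9 showed the largest fall of the 9 tested members. It encodes the regulatory myosin light chain of smooth muscle, whose phosphorylation drives contraction (chromosome 2, positions 156775420 to 156781658, plus strand). It had 7.38, 5.17, 6.82 and 6.75 CPM in Upf2cKO, against 9.97, 9.81, 9.84 and 9.23 CPM in controls. The groups were well apart, with Upf2cKO 2 the lowest library. The fall was 1.49-fold (log2 change -0.58, SE 0.103, limma adjusted p = 5.93e-04), and without Upf2cKO 2, in which the level was lowest, the log2 change was -0.47.

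Acta2, the smooth muscle actin gene that marks arteriolar smooth muscle more than capillary pericytes, was close to silent in the embryonic cortex. It had 0.43, 0.14, 0.19 and 0.16 CPM in Upf2cKO and 0.57, 0.46, 0.37 and 0.24 CPM in controls, which stands for about 16 to 70 reads per library. It reached 0.5 CPM in 1 library and was not tested with the other genes. Upf2cKO 1 lay within the control range, and the other 3 Upf2cKO libraries lay below every control. The difference of mean log2(CPM + 0.1) was -0.66 (exact permutation test, two-sided, p = 0.0857, where 70 arrangements can give 0.0286 at the smallest).

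Both contractile members are known targets of serum response factor, which binds the CArG box, so the RefSeq promoters of the members (GRCm38.p6, 250 bases before to 50 after the start) were searched for it. A window was found for 8 members. The CArG box was present without mismatch in 1 of the 8, that of Myl9, on either strand since the motif reads the same both ways, and in 1.63% of 32851 promoter windows. With 1 mismatch allowed, a setting chosen after seeing the data, it was present in 4 of the 8 (Myl9, Acta2, Kcnj8 and Cspg4) and in 21.1% of all windows. The Myl9 window is shown up to the base before 156775408, the first base of the gene in RefSeq, which lies upstream of the GENCODE start given above (chr2:156775214-156775407, plus strand), followed by the 2 sites of Acta2 with 10 bases on either side (chr19:34255438-34255467 and chr19:34255388-34255417, minus strand). Capitals mark the boxes.
Myl9 upstream: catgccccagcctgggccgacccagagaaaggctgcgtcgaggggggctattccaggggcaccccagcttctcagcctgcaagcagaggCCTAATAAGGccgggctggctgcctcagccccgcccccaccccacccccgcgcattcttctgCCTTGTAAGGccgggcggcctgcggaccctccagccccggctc
Acta2 box 1: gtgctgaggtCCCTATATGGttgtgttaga
Acta2 box 2: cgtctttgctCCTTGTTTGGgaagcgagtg
The first Myl9 box is the match without mismatch, and the second has 1 mismatch. They begin 161 and 99 bases before the start on which the promoter window is set. That start lies downstream of base 156775408, so both boxes lie nearer to the first RefSeq base than these distances. The Acta2 boxes begin 84 and 34 bases before the start on which their window is set. They have 1 mismatch each and lie within the first exon that GENCODE annotates for the gene. The MCAT motif CATTCC was present in 3 of 8 member windows and 14.7% of all windows, TGGGAA, bound by the Notch effector RBPJ, in 4 and 25.6%, and CACGTG in 0 and 7.15%, on both strands. Matches of CATTCC and TGGGAA overlap each other in the Abcc9 and Vtn windows.

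Vtn encodes vitronectin, a secreted adhesion protein of the vessel wall that brain pericytes produce. It had 16.68, 12.53, 12.09 and 12.99 CPM in Upf2cKO, against 14.37, 13.53, 14.72 and 13.8 CPM in controls. Upf2cKO 1 was the highest library of all 8, and the other 3 Upf2cKO libraries lay below every control. Over all 8 libraries the log2 change was -0.07 with a 95% interval of -0.28 to 0.14 (limma adjusted p = 0.563). Without Upf2cKO 1 it was -0.17 and passed the test (adjusted p = 0.0314).

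Higd1b encodes a small protein of the hypoxia-inducible HIG1 domain family whose transcript is enriched in pericytes. It had 2.26, 2.51, 2.54 and 2.18 CPM in Upf2cKO and 3.59, 3.54, 3.17 and 3.22 CPM in controls, without overlap. The means were 2.37 ± 0.180 CPM in Upf2cKO and 3.38 ± 0.216 CPM in controls (SD, n = 4 each), 1.41-fold lower (log2 change -0.49, SE 0.094, limma adjusted p = 9.36e-04). Unlike Pdgfrb, Myl9, Cspg4, Anpep, Vtn and Acta2, it was not highest in Upf2cKO 1 among the Upf2cKO libraries.

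Upf2cKO 1 thus had the highest value of its group in 6 of the 10 members, and it is the library with most RNA of mature neurons and glia. Without it, 6 members passed as lower (the 4 above with Anpep and Vtn), where 28.1% of all genes tested were lower. Without both Upf2cKO 1 and control 1, a setting chosen after seeing the data, 4 members passed. After median-of-ratios rescaling, which lowers all Upf2cKO values relative to controls, 7 members passed as lower, where 35.0% of all genes were lower. On TPM 3 members passed (Pdgfrb, Myl9 and Higd1b), where 16.7% of all genes were lower. The rescaling also moved the balance of all calls, with 46.8% of them higher in Upf2cKO against 58.3% on the deposited CPM and 68.8% on TPM. The part of these features in the members' levels was not tested.

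**Figure D2:**
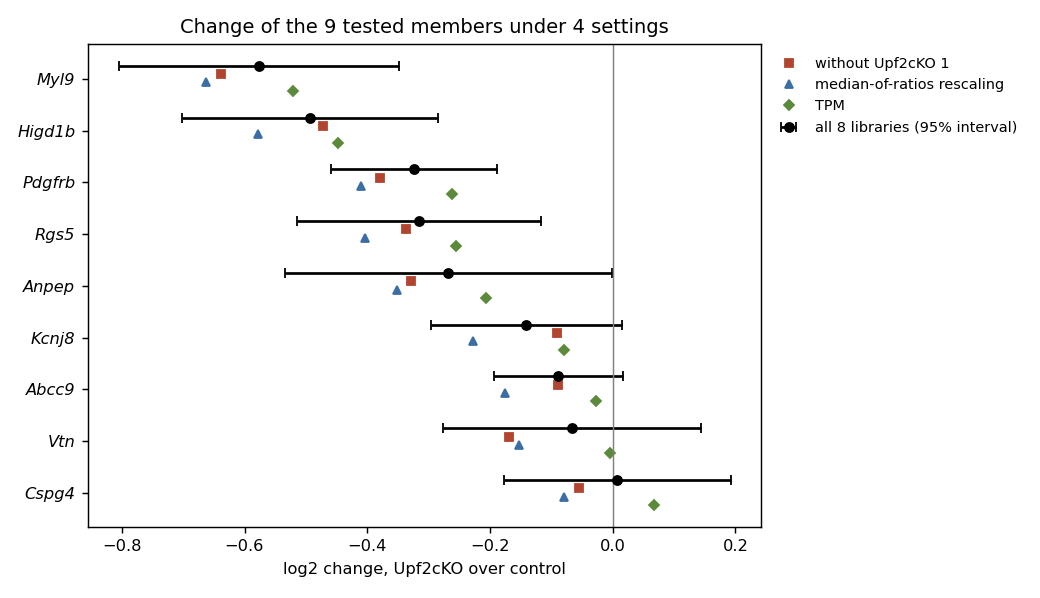
Log2 change of the 9 tested members, Upf2cKO over control (horizontal axis, 0 marked), with all 8 libraries (black, 95% interval) and under 3 other settings. Myl9, Higd1b, Pdgfrb and Rgs5 stay left of 0 throughout, while Cspg4 lies on both sides.

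By mean level per gene length, Rgs5 led in both groups, and Cspg4, Anpep and Acta2 stood last. In Upf2cKO, Rgs5 was followed by Vtn (27.6 ± 4.09 TPM), Myl9 (23.2 ± 3.45 TPM), Pdgfrb (15.1 ± 1.16 TPM), Kcnj8 (13.9 ± 1.01 TPM), Higd1b (11.6 ± 0.908 TPM), Abcc9 (11.1 ± 0.329 TPM), Cspg4 (7.22 ± 0.755 TPM), Anpep (1.78 ± 0.157 TPM) and Acta2 (0.433 ± 0.255 TPM; SD, n = 4 each). In controls, Myl9 (33.1 ± 1.47 TPM) stood above Vtn (27.5 ± 1.36 TPM), and Higd1b (15.8 ± 1.06 TPM) above Kcnj8 (14.6 ± 0.442 TPM; SD, n = 4 each). Within each Upf2cKO library, Vtn stood above Myl9 and Kcnj8 above Higd1b, although the ranges of each pair overlapped. Pdgfrb and Kcnj8 changed places between Upf2cKO libraries, as did Higd1b and Abcc9, so these neighbours have no firm order there. Higd1b and Kcnj8 changed places between controls, so their order is not firm in that group.

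Other genes of mural cells also included both called and uncalled members. Of 30 further genes listed for pericytes and smooth muscle, 29 were tested, 11 fell and 2 rose, and their median log2 change was -0.12. Among all genes tested, 26.3% fell and 36.7% rose. Gucy1a1 and Gucy1b1, the subunits of soluble guanylate cyclase, which relaxes smooth muscle in response to nitric oxide, fell 1.52-fold (194 ± 4.08 CPM in Upf2cKO, 297 ± 13.3 CPM in controls; SD, n = 4 each; limma adjusted p = 3.73e-07) and 1.73-fold. Neurons also express both. The amino acid transporter Slc6a20a rose by a log2 change of 1.63, with 1.98 ± 0.126 CPM in Upf2cKO and 0.578 ± 0.114 CPM in controls (SD, n = 4 each; limma adjusted p = 2.49e-06). It reached 0.5 CPM in 6 libraries, with controls at 0.49 to 0.73 CPM, so it passed the filter only through the Upf2cKO libraries. It also shares 607 exonic bases with genes annotated at its locus. Chosen after their values were seen, Notch3, the Notch receptor of mural cells, had a log2 change of 0.12 with a 95% interval of -0.05 to 0.29 (limma adjusted p = 0.185), while Heyl, a Notch target, fell 1.33-fold (adjusted p = 0.00117).

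A list of 18 genes joined the smooth muscle contractile apparatus with the transcription regulators Srf (serum response factor), Myocd, Mrtfa and Mrtfb. Of these 18, 12 were tested, with 2 higher, 5 lower and a median log2 change of -0.02. The 5 lower included Srf and Mrtfb, and the regulators are named outside the rule for naming genes. The shares over all genes tested were 36.7% higher and 26.3% lower. Against the fall of Myl9, Myh11, the smooth muscle myosin heavy chain, rose 2.96-fold, with 1.58 ± 0.163 CPM in Upf2cKO and 0.473 ± 0.0957 CPM in controls (SD, n = 4 each; limma adjusted p = 6.41e-06), and the actin-binding caldesmon gene Cald1 rose 1.57-fold. Myh11 reached 0.5 CPM in 6 libraries, with controls at 0.38 to 0.56 CPM, so it passed the filter only through the Upf2cKO libraries. Smtn, which encodes smoothelin, fell 1.41-fold. Tagln, Cnn1, Des, Actg2, Pln and Myocd were below the filter. The number lower was not stable, at 1 on TPM and at 1 to 3 when any 1 library other than Upf2cKO 1 was left out.

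Pdgfb encodes the ligand that endothelial cells release for PDGFRB, and it did not pass the test. It had 8.7, 8.11, 7.55 and 8.02 CPM in Upf2cKO and 8.53, 8.71, 7.86 and 9.12 CPM in controls. The groups overlapped, with a log2 change of -0.08 and a 95% interval of -0.24 to 0.08 (limma adjusted p = 0.365). Of the 14 genes listed for PDGF signalling, 3 rose and 4 fell, with a median log2 change of -0.02. Such counts stand beside 36.7% higher and 26.3% lower among all genes tested. The phospholipase Plcg1 rose 1.76-fold and the phosphatase Ptpn11 1.31-fold, both used by many receptors besides PDGFRB, while Pik3r1, a regulatory subunit of PI3 kinase, fell 1.24-fold. With libraries rescaled by median of ratios, 2 of the 14 passed as higher and 6 as lower, where 35.0% of all genes were lower.

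Endothelial markers were lower beside the mural genes. Of 15 tested, 12 fell and 0 rose, with a median log2 change of -0.27, the same as that of the 9 tested mural genes. Among all genes tested, 26.3% fell and 36.7% rose. Among the most abundant, the thyroid hormone transporter Slco1c1 had 46.2 to 53.32 CPM in Upf2cKO and 58.57 to 65.11 CPM in controls (1.22-fold lower), and the glucose transporter Slc2a1 had 40.2 ± 2.76 CPM in Upf2cKO and 51.3 ± 3.71 CPM in controls (1.27-fold lower; SD, n = 4 each). The summed endothelial level was 295 to 327 TPM in Upf2cKO and 372 to 391 TPM in controls, without overlap. The summed level of the 10 mural genes was 161 to 192 TPM in Upf2cKO and 202 to 221 TPM in controls.

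Set against each other, the 2 sums gave ratios that overlapped between the groups. The mural sum was 0.598, 0.547, 0.548 and 0.620 of the endothelial sum in Upf2cKO 1 to 4, and 0.585, 0.548, 0.588 and 0.517 in controls 1 to 4. The groups overlapped, with means of 0.578 ± 0.0366 in Upf2cKO and 0.559 ± 0.0337 in controls (SD, n = 4 each). Without Rgs5, which makes up the largest part of the sum, the ratios were 0.340 to 0.379 in Upf2cKO and 0.324 to 0.355 in controls. These also overlapped, with 3 of the 4 Upf2cKO libraries above every control.

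**Figure D3:**
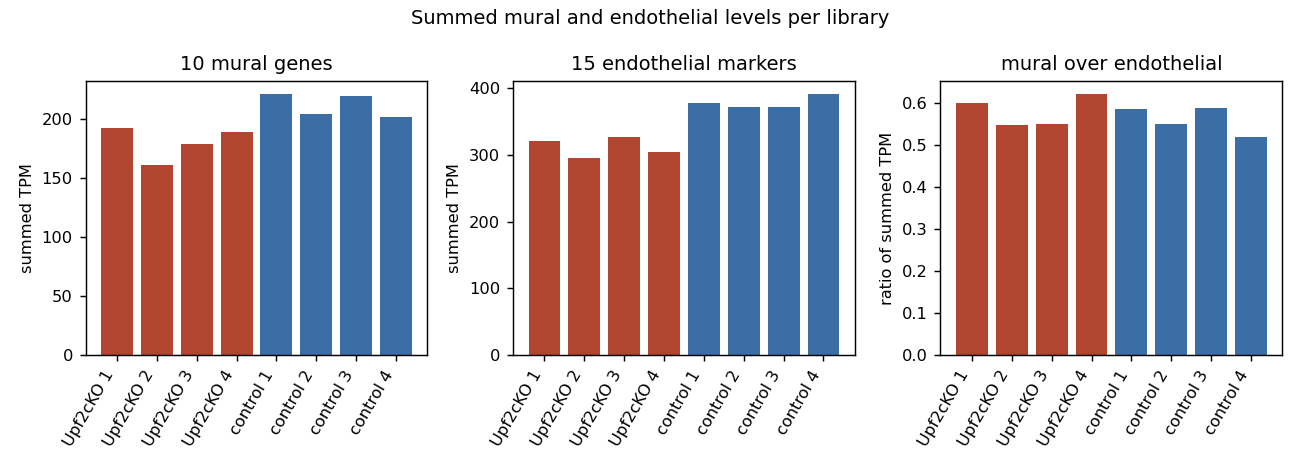
Summed TPM of the 10 mural genes (left), of 15 endothelial markers (middle) and their ratio (right) in each library, Upf2cKO in red and controls in blue, with axes from 0. Both sums are lower in each Upf2cKO library than in each control, and the ratios overlap at 0.547 to 0.620 in Upf2cKO and 0.517 to 0.588 in controls.

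Among genes for signals between endothelial and mural cells and for their shared matrix, falls outnumbered rises. All genes tested showed the reverse balance, with 26.3% lower and 36.7% higher. Of 17 genes listed for endothelial to mural signalling, 1 rose and 7 fell, with a median log2 change of -0.19. The growth factor Hbegf fell 1.24-fold and the signal transducer Smad4 1.14-fold, while the ligand Tgfb1 rose 1.53-fold, with 3.81 ± 0.241 CPM in Upf2cKO and 2.46 ± 0.369 CPM in controls (SD, n = 4 each; limma adjusted p = 6.91e-04). With libraries rescaled by median of ratios, 12 of the 17 passed as lower, where 35.0% of all genes were lower. Without Upf2cKO 2, 2 of the 17 passed as higher. Of 15 basement membrane genes, 10 fell and 2 rose, with a median log2 change of -0.29. The laminin chains Lamb1 (1.37-fold) and Lama4 (1.32-fold) and the linker Nid1 (1.30-fold) were lower. The most abundant of the 15 by CPM, the proteoglycan gene Agrn, rose 1.35-fold, with 623 ± 54.4 CPM in Upf2cKO and 461 ± 14.4 CPM in controls (SD, n = 4 each; limma adjusted p = 1.08e-04; named after its value was seen). The sum over the list was 1095 to 1263 CPM in Upf2cKO and 1114 to 1156 CPM in controls, overlapping. Of 7 receptors and partners of vitronectin, 2 rose (Plaur 1.53-fold and Itgb5 1.23-fold) and 2 fell (Itgb8 1.37-fold and Itgb1 1.14-fold). Itgb5 is named outside the rule for naming genes.

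Markers of other cells near vessels did not share one direction. For the counts below, the shares over all genes tested were 36.7% higher and 26.3% lower. Meningeal fibroblast markers were low, with sums of 23.3 to 27.5 CPM in Upf2cKO and 17.2 to 21.1 CPM in controls, and of the 10 tested 2 rose and 2 fell (4 rose without control 4, and 1 fell without control 1). The most abundant of them, the proteoglycan gene Dcn, had 9.42 ± 1.97 CPM in Upf2cKO and 2.63 ± 0.511 CPM in controls (SD, n = 4 each; 3.47-fold higher, limma adjusted p = 4.46e-06), and the other that rose was Crabp2 (2.84-fold, named after its value was seen). Crabp2 lay at 0.33 to 0.57 CPM in controls and passed the filter only through the Upf2cKO libraries. The collagen gene Col1a2 had 4.38 ± 0.369 CPM in Upf2cKO and 3.95 ± 0.740 CPM in controls (SD, n = 4 each; limma adjusted p = 0.291). Markers of erythroid cells, which lie inside the vessels, fell in 5 of the 5 tested, with a median log2 change of -0.54. Microglial markers rose in 7 of 9, with a median log2 change of 1.59 and sums of 119.5 to 176 CPM in Upf2cKO and 51.2 to 69.3 CPM in controls. Oligodendrocyte precursor markers fell in 3 of 7. The fibroblast markers Slc22a6 and Aldh1a2 were below the filter, at up to 0.51 CPM (control 4) and 0.31 CPM (Upf2cKO 1). The part of these cells in the mural gene levels was not tested.

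**Figure D4:**
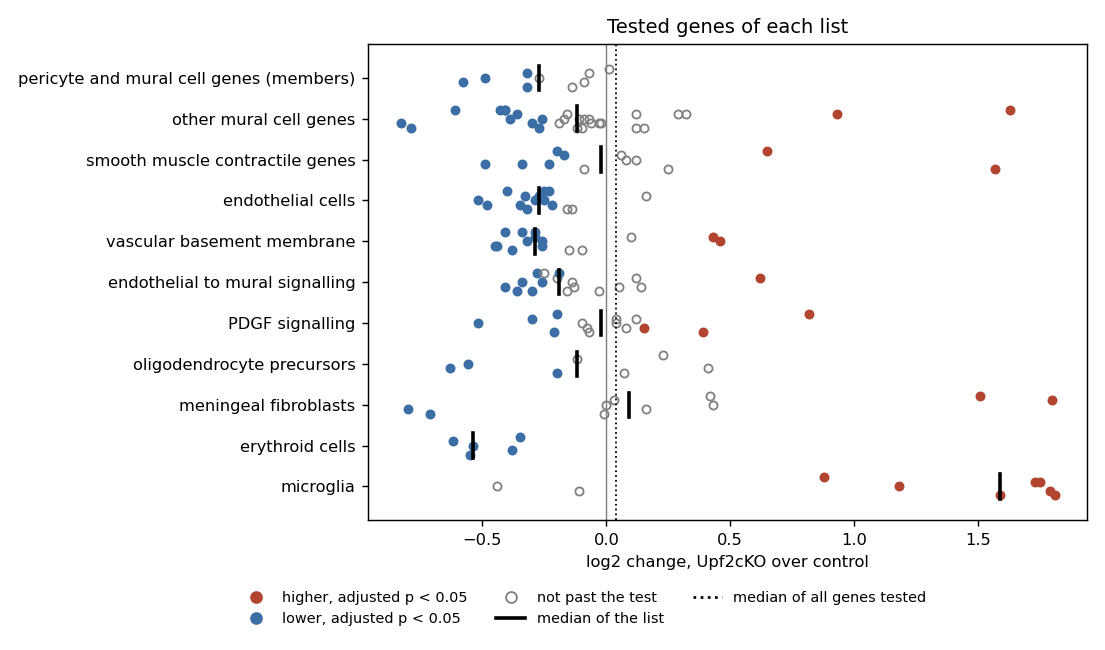
Log2 change of each tested gene, Upf2cKO over control (horizontal axis), by list, with filled points for genes past the test, a bar at the median of each list and a dotted line at the median of all genes tested (0.04). The mural members and the endothelial markers share a median of -0.27, the erythroid markers lie at -0.54 and the microglial markers at 1.59.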

How the data were processed

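RNA of 8 E18.5 cortices was sequenced with a stranded kit, per the labels' protocols. The kit named there is made for total RNA but the molecule is listed as polyA RNA, and RNA selection is therefore unclear. Per the submitters' processing notes, the tools included STAR 2.7.11a, fastp 0.23.4, MultiQC 1.25, Picard 3.1.1 and DESeq2, and the build was mm10, with no roles stated. How reads were counted (tool, strand, annotation) was not given in the sources used here. Both CPM and TPM per gene and library were deposited by the authors, with 2 decimals. A CPM is a share, so a rise of some genes lowers others, and the deposited TPM are also divided by gene length.

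Depth was estimated from the steps between low TPM values of short genes. Within 0.15 reads, 99.9% to 100.0% of 912 to 1142 values per library came out whole. In each library more values stood at 2 reads than at 1, so mates may have been counted separately, which would make the fragments behind a value fewer than the reads printed. The CPM, at 2 decimals, do not resolve whole reads for most genes, and no count test was run.

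A gene entered the test with 0.5 CPM or more in at least 4 libraries. On log2(CPM + 0.1), limma 3.58.1 in R 4.3.3 was run two-sided with an intensity trend and no covariates, and Benjamini-Hochberg adjustment covered all 16573 genes at a threshold of 0.05. The fit was also run on simulated data in which a small share of genes was altered, equally up and down. That setting differs from these data, in which 63.0% of genes passed, so it does not show how the fit behaves here. GENCODE M21 named 55141 of 55487 identifiers, and the gene lengths implied by the deposited values fell within 0.5% of its merged exons for 97.8% to 97.9% of genes over 20 CPM. Promoters are from RefSeq (GRCm38.p6).

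The members and lists were chosen with earlier results of these data known, so no list is tested. The text names the members, Upf2, the 3 genes of each companion list with the smallest adjusted p past the threshold, Pdgfb, Kcnj11, Abcc8 and at most 2 abundant genes of each marker list. Alternatives were median-of-ratios rescaling, TPM, pseudocount, filter, trend, a replicate block and left-out libraries.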

Additional observations from a re-analysis of the deposited data

Results flagged for a closer look

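Among 21 measures in each group (42 groups of 4 libraries), 4 had 1 library apart from the other 3, where chance gives about 1 in 20 groups. Pdgfrb had 24.0 CPM in control 1, against 25.2 to 25.4 CPM in the other controls. The summed markers of mature neurons and glia reached 819 CPM in Upf2cKO 1, against 98.5 to 104 CPM in Upf2cKO 2 to 4. The summed choroid plexus markers reached 286 CPM in Upf2cKO 4, against 4.03 to 9.69 CPM in the other 3. The summed oligodendrocyte precursor markers reached 152 CPM in Upf2cKO 1, against 125 to 128 CPM in the other 3.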

How the results depend on the processing

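Pdgfrb, Myl9 and Higd1b passed as lower under all 17 alternatives, with log2 changes of -0.41 to -0.26, -0.66 to -0.47 and -0.58 to -0.38. Rgs5 passed under 16 of 17 (-0.41 to -0.23). Of the 10 members, 4 passed on the deposited CPM, 7 after median-of-ratios rescaling, and 4 to 6 when each library was left out in turn. Cspg4 turned negative after median-of-ratios rescaling (-0.08), in 3 of the leave-one-out fits (-0.06 without Upf2cKO 1, -0.02 without Upf2cKO 2, -0.04 without control 3; range -0.06 to 0.07) and without both control 1 and Upf2cKO 1 (-0.04, a setting added with the data in view). It passed under none of the 17, and the cause was not tested. The count of all genes past the threshold was 10441, and 9651 to 10660 with a library left out. Acta2 did not pass in 13 alternatives (log2 difference -0.91 to -0.20), at about 16 to 70 reads per library. The CArG box was found in 1 member window, and in 4 with 1 mismatch allowed. CATTCC was found in 3, and in 0 on the strand of the gene alone.

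Same-numbered libraries deviated together with r of 0.42, 0.05, 0.52 and 0.19 for numbers 1 to 4. For Upf2cKO 1, 3 and 4 the same-numbered control gave the highest r, while Upf2cKO 2 correlated best with control 4 (0.25). The numbers were not taken to pair the samples in the main fit, and whether they do was not tested. With the replicate block, 4 members and 10549 genes passed.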
